A study of Homo sapiens with 36 samples.

Results

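COLO 320 is a human colon cancer cell line known for amplified copies of MYC, and its response to JQ1 is described here across the transcriptome. Of the 36 RNA-seq libraries of the series, 6 came from COLO 320. These were 3 libraries of cells given DMSO, the solvent, and 3 of cells given 0.5 µM JQ1, both for 24 h and both collected in log-phase growth. The other 30 libraries came from HCT 116, SW 480, HT-29, COLO 205 and HCT-15, treated in the same way with 3 libraries per treatment, and serve here only for comparison. All groups are unmodified cell lines, so COLO 320 stands for a single tumour, and the labels do not say which subline was grown. Of the 26468 genes in the table, 12473 were tested. These had at least 1 RPKM in at least 3 of the 6 COLO 320 libraries. RPKM here is reads scaled to transcript length and to a depth factor of each library. The labels do not state whether the 3 libraries of a group were separate cultures. The spread behind each p-value is that among these libraries and may be technical.

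JQ1 occupies the acetyl-lysine pocket of the bromodomains of the BET proteins, among them BRD2 and BRD3. BET proteins bind acetylated chromatin and help P-TEFb, the kinase complex that releases paused RNA polymerase II into elongation. MYC is a transcription factor that pairs with MAX on E-box sequences and promotes ribosome production, nucleotide synthesis and entry into S phase. It is known as a gene that BET inhibitors lower in many blood cancers, and in colon cancer it is a target of the Wnt pathway.

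The COLO 320 libraries held 21.1 to 25.7 M reads in genes, and those of the other lines 18.8 to 53.1 M. RPKM values were recovered as whole reads for 100% of detected genes, and no replicate pair agreed within sampling noise. The colon label was checked against marker genes. Of 23 epithelial junction and keratin genes, 16 were under the detection filter, among them CDH1 (E-cadherin) at 0.00736 RPKM and KRT19 at 0.04 RPKM in DMSO. The summed level of these 23 genes was 120.8 to 125.4 RPKM in the COLO 320 DMSO libraries against 1816 to 10196 RPKM in the libraries of the other lines. Of 31 neuroendocrine genes, 25 were under the filter, including CHGA and INSM1, while UCHL1, a ubiquitin hydrolase of neurons, stood at 542 RPKM. VIM, the mesenchymal filament vimentin, stood at 520 RPKM. CDX2, the intestinal homeobox factor, was at 1099 RPKM, but 21 of 28 intestinal genes were under the filter. Defining markers of colon epithelium other than CDX2 were thus mostly absent, and the cells are called by the line's name below.

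MYC stood at 1857, 1834 and 1856 RPKM in the 3 DMSO libraries and at 1172, 1172 and 1184 RPKM in the 3 JQ1 libraries. All 3 JQ1 libraries lay below all 3 DMSO libraries. The log2 change was −0.65 (SE 0.016), and it was past the threshold of an adjusted p of 0.05 in limma with Benjamini-Hochberg adjustment over all 12473 genes (adjusted p = 3.465e-08). Log2 changes are on the scale of log2(RPKM + 0.5), which understates the change of genes at low levels. In DMSO, MYC ranked 9 among all tested genes by mean RPKM in COLO 320, and after JQ1 it ranked 25. The JQ1 level of COLO 320 was still 6.2 times the highest DMSO mean of the other lines, that of HCT 116 at 189.8 RPKM. The log2 changes in the other lines were −0.85 in HCT 116, −0.14 in SW 480, −1.35 in HT-29, −1.23 in COLO 205 and −0.75 in HCT-15. The effect in COLO 320 was less negative than the mean of these 5 by 0.21 (SE 0.026, adjusted p = 3.902e-08, limma over all 36 libraries). That difference was 0.03 with an adjusted p of 0.411 (limma) after quantile scaling. With single lines taken out of the mean of the others it ranged from 0.09 without HT-29 to 0.39 without SW 480. So MYC fell in COLO 320, whereas a smaller fall than in the other lines was not seen under each scaling.

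**Figure D1:**
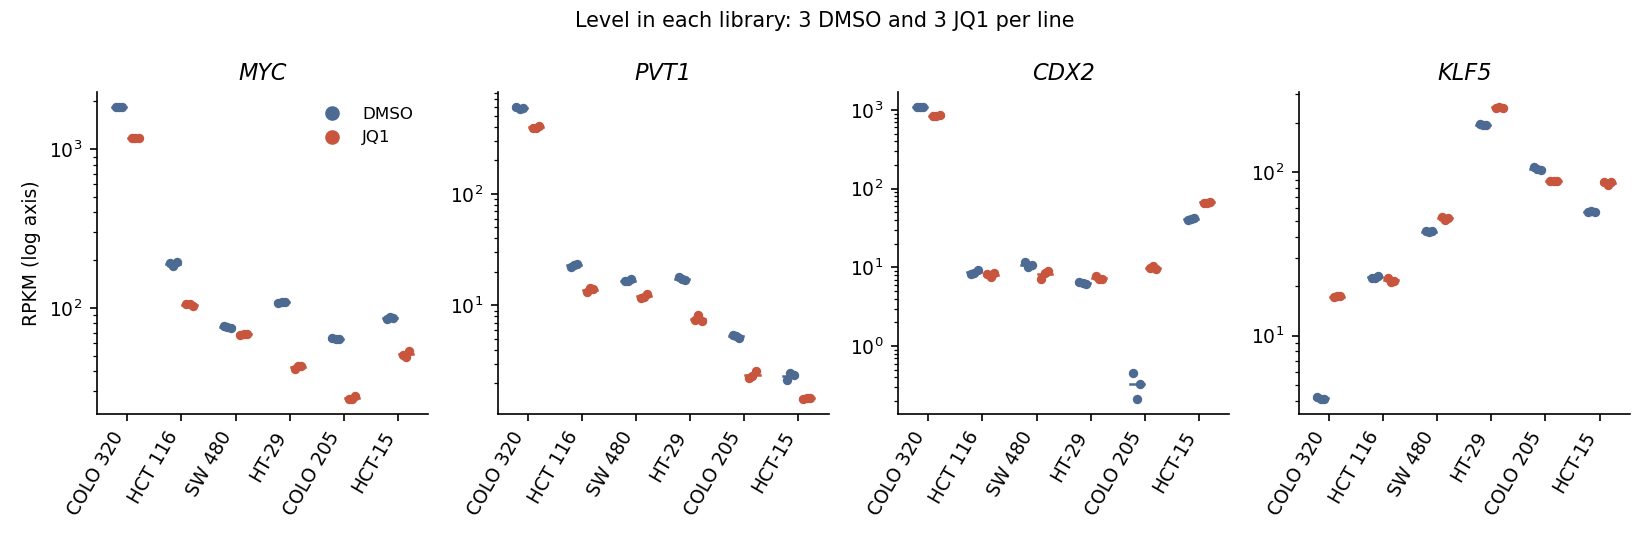
Level of MYC, PVT1, CDX2 and KLF5 in each library (RPKM, log axis) for the 6 lines, with DMSO libraries in blue, JQ1 libraries in red and a bar at the mean of 3. In COLO 320 the MYC, PVT1 and CDX2 points lie far above those of the other lines under both treatments, with the JQ1 points below the DMSO points, whereas KLF5 is lowest in COLO 320 and rises from 4.14 to 17.3 RPKM.

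PVT1, the long noncoding RNA gene next to MYC on 8q24, was at 604, 573 and 586 RPKM in DMSO and at 393, 386 and 405 RPKM with JQ1. It fell by 0.57 on the log2 scale (SE 0.026, adjusted p = 4.214e-07, limma), and the groups did not overlap. Its DMSO mean was 25.72 times the highest of the other lines. LRATD2, also of 8q24, had a DMSO mean of 556 RPKM and fell by 0.21 on the log2 scale. POU5F1B, a retrogene of the pluripotency factor OCT4, and PCAT1, a noncoding RNA gene, lie nearby at low levels of 4.18 and 4.58 RPKM. They fell by 1.30 and 0.73 on the log2 scale. JQ1 thus moved these neighbours by different amounts, the least for LRATD2 and the most for POU5F1B.

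CDX2 on 13q12 was at 1102, 1090.3 and 1105 RPKM in DMSO, 26.62 times the highest mean among the other lines, that of HCT-15. With JQ1 it was at 834, 841 and 867 RPKM, a log2 change of −0.38 (SE 0.019, adjusted p = 8.622e-07, limma), and all 3 libraries were below those of DMSO. In the other lines the log2 change ran from −0.39 in SW 480 to 3.66 in COLO 205, where CDX2 started at 0.33 RPKM. The difference from their mean was −1.19 (adjusted p = 1.576e-13, limma) and −0.48 when COLO 205 was left out of that mean. GTF3A, the transcription factor of 5S rRNA genes that lies in the same region, fell from 254 to 184 RPKM (log2 −0.46), and PDX1, a pancreatic and duodenal homeobox factor, fell from 7.54 to 6 RPKM. POLR1D, PAN3, ATP5F1EP2 and LNX2 rose, with log2 changes of 0.14 to 0.50 and LNX2 highest. Of 21 matched genes listed for both regions, MYC and CDX2 included, 7 were under the filter, 9 fell, 4 rose and 1 was not called. Across all tested genes 41.7% fell and 37.0% rose. Copy number was not measured in these data, so the share of a high level that comes from amplified copies was not tested.

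JQ1 changed most of the COLO 320 transcriptome by small amounts. In limma 9817 of 12473 genes (78.7%) passed an adjusted p of 0.05, 4611 (37.0%) higher and 5206 (41.7%) lower. Counts of list members called below are to be read beside these shares. The DMSO and JQ1 values did not overlap for 10066 genes (80.7%). The median log2 change over all genes was −0.02. Changes of at least 2-fold were fewer and mostly downward: 179 genes (1.44%) rose and 689 (5.52%) fell by that much, so 79.4% of these calls were falls. The same share was 65.1% after quantile scaling and 70.3% with voom on the recovered reads. Leaving out any 1 DMSO library lowered the count of 2-fold falls to 445, 453 and 453 for replicates 1, 2 and 3, since the expression filter was then applied to 5 libraries. The share of falls was then 70.4%, 71.2% and 70.3%, and it was 82.2% to 82.8% without a JQ1 library. The filter admits genes through 1 group alone: 400 tested genes reached 1 RPKM in all 3 DMSO and no JQ1 library, and 127 the reverse. The share of falls thus depends in part on the filter. With the same 12473 genes kept, the count was 684 to 695 whichever of the 6 libraries was left out. Fitted alone in the same way, the other lines had 50% (HCT-15) to 68.5% (HCT 116) falls among their 2-fold calls.

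**Figure D2:**
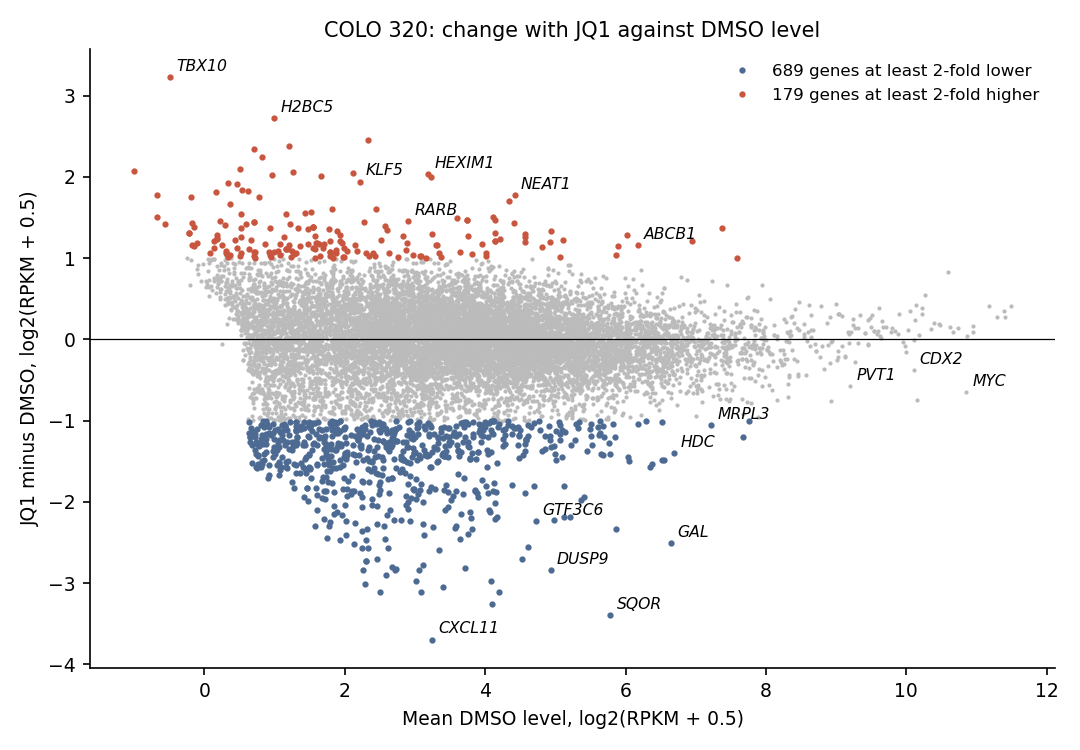
Log2 change with JQ1 against the mean DMSO level of each of the 12473 genes in COLO 320, both on the log2(RPKM + 0.5) scale, with 2-fold calls coloured. Blue points (689 falls) outnumber red points (179 rises), the filter on low values shapes the left edge, and MYC, CDX2 and PVT1 lie at the far right with small negative changes.

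Genes often used as readouts of BET inhibition moved in COLO 320. HEXIM1, which encodes an inhibitor of P-TEFb, was at 8.56, 8.42 and 8.77 RPKM in DMSO and at 36.7, 36.1 and 36.9 RPKM with JQ1 (log2 2.03, SE 0.024, adjusted p = 7.818e-09, limma). All 3 JQ1 libraries lay above all 3 DMSO libraries. SERPINI1, a serine protease inhibitor, rose from 11.6 ± 0.621 to 33.5 ± 0.499 RPKM (SD, n = 3 per group). TXNIP, an inhibitor of thioredoxin, rose from 17.1 to 43.2 RPKM. ZMYND8, a reader of histone marks, fell from 14.4 to 5.2 RPKM. In all, 6 of 7 tested readout genes rose and 1 fell, and 1 listed gene was under the filter. The median log2 change was 1.31 against 1.76 for the mean of the other lines. The effect in COLO 320 was called lower for 5 and higher for 1 (4 and 1 after quantile scaling). In that comparison 33.8% of all tested genes were called lower and 31.2% higher.

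Genes of the drug's targets rose by less than the readout HEXIM1. BRD2 rose from 56.7 to 82.1 RPKM (log2 0.53) and BRD3 from 23 to 29.1 RPKM (log2 0.33). Among 21 tested genes of BET proteins and P-TEFb, 15 rose, 2 fell and 4 were not called, with a median of 0.22. AFF4, a scaffold of the super elongation complex, rose by 0.66 and ELL2, an elongation factor, by 0.68 on the log2 scale. HEXIM2, a paralog of HEXIM1, fell from 5.26 to 2.59 RPKM, the opposite direction to HEXIM1.

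Histone genes, which encode the proteins that package DNA, rose together. Of 28 listed histone genes 7 were under the filter. Of the 21 tested 20 rose and 1 fell, where 37.0% of all tested genes rose. At least 2-fold rises were seen for 13, and the median log2 change was 1.38. H2AC8, H2BC4, H2AC11 and H4C8, with DMSO means of 0.373 to 0.943 RPKM, needed JQ1 libraries to pass the filter. The filter thus favours counting such genes as rises. Clustered, replication-dependent genes led: H2BC5 went from 1.51, 1.55 and 1.41 RPKM in DMSO to 12.1, 12.9 and 12.9 RPKM with JQ1 (log2 2.72, SE 0.048, adjusted p = 1.355e-08, limma). H2BC21 rose from 4.54 to 27.1 RPKM, H2AC6 from 1.81 to 11.5 RPKM and H1-2 from 3.83 to 17.5 RPKM. H2BC8, H2AC11, H3C10, H4C8, H2BC4 and H2AC8 rose by 1.75 to 2.34 on the log2 scale from DMSO means of 0.373 to 1.44 RPKM, which rest on 18 to 58 reads over the 3 DMSO libraries. The linker histone H1-10 rose from 191 to 384 RPKM. The variant H2AZ1 fell from 560 to 481 RPKM. Clustered histone mRNAs normally lack a poly(A) tail and the clustered genes resemble one another, so reads may be shared between them and only part of these mRNAs may be captured. The median over the same genes was 2.23 for the mean of the other lines. The effect in COLO 320 was called lower for 15 genes and higher for 1, against 33.8% and 31.2% of all tested genes. After quantile scaling those counts were 6 and 6, so a weaker histone response in COLO 320 depended on the scaling.

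The promoters of the histone genes are shown because they share a motif that few other promoters hold. The octamer ATTTGCAT, a binding site of POU factors in H2B promoters, was searched on both strands from 250 bases before to 50 bases after the RefSeq start (GRCh38.p14). It was present in 11 of 20 histone genes with a promoter sequence (55.0%), in 9.4% of genes that rose at least 2-fold, in 1.3% of all tested genes and in 1.8% of all 27305 promoters. The histone genes make up part of the 2-fold class. The 11 genes do not stand for separate sites. Within the neighbouring pairs H2AC6 and H2BC4, H2AC8 and H2BC8, H2AC11 and H2BC11, and H2AC20 and H2BC21, the same octamer is read on opposite strands. A stretch of 100 bases of that window, lying upstream of the start, is given 5′ to 3′ on the gene's strand for 4 H2B genes, with the octamer in capitals.
H2BC21 (chr1:149886683-149886782, minus strand): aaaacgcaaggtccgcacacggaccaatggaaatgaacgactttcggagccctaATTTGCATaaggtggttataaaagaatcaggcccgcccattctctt
H2BC8 (chr6:26216689-26216788, minus strand): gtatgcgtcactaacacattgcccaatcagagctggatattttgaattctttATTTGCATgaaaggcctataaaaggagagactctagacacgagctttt
H2BC4 (chr6:26123997-26124096, minus strand): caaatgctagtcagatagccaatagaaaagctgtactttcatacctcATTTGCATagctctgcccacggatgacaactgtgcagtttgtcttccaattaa
H2BC12 (chr6:27146859-27146958, minus strand): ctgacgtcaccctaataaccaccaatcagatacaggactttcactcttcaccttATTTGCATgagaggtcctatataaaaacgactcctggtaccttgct
In COLO 320 these 4 genes rose by 2.45, 2.34, 1.81 and 0.89 on the log2 scale, in the order printed. A match says only that these letters stand in the window.

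Among the other largest rises, TBX10, a T-box transcription factor, went from 0.208, 0.248 and 0.182 RPKM in DMSO to 6.47, 5.88 and 6.12 RPKM with JQ1 (log2 3.22, SE 0.066, adjusted p = 2.052e-08, limma). In DMSO, 4 of the other lines had at most 0.132 RPKM of TBX10, and with JQ1 at most 0.161 RPKM. HT-29, the line that expressed it, went from 2.98 to 0.737 RPKM. COLO 320 itself started from a low DMSO mean of 0.212 RPKM, and why the other 4 stayed low was not tested. KLF5, an epithelial and intestinal crypt transcription factor, rose from 4.2, 4.09 and 4.11 RPKM to 17.1, 17.4 and 17.4 RPKM (log2 1.94). Even so, COLO 320 with JQ1 stayed at 0.09 times the highest DMSO mean of the other lines. The log2 change of KLF5 in those lines lay between −0.24 and 0.58, and the difference from their mean was 1.76 (SE 0.023, adjusted p = 3.394e-30, limma).

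KLF2, a related factor of quiescent lymphocytes and endothelium, rose from 2.68 to 12.2 RPKM. Its log2 change was 1.09, 1.11 and 1.41 in HCT 116, SW 480 and HCT-15, and −2.52 in COLO 205. The difference of KLF2 from the mean of the other lines was 1.84, and 1.17 with COLO 205 left out of that mean. KRT20, a keratin of differentiated colon epithelium, rose from 0.95, 0.967 and 0.739 RPKM to 4.82, 4.69 and 4.55 RPKM, while HT-29 went from 140.9 to 296.6 RPKM. The other 4 lines had at most 0.523 RPKM of KRT20 in DMSO and 0.446 RPKM with JQ1. Its difference from the mean was 1.75 (2.78 after quantile scaling), and why those 4 stayed low was not tested. RARB, the retinoic acid receptor beta, was at 6.72, 6.93 and 7.33 RPKM in DMSO and at 19.99, 20.6 and 19.7 RPKM with JQ1. No other line had a DMSO mean of RARB above 0.0593 RPKM, so the difference of 1.47 from their mean cannot separate a lack of response from a lack of expression there. CDKN2D, which encodes the CDK4 and CDK6 inhibitor p19, rose from 1.91 to 9.58 RPKM. EFR3B, a membrane adaptor of a lipid kinase, rose from 1.27 to 7.87 RPKM and the nuclear noncoding RNA NEAT1 from 20.9 to 72.5 RPKM. The rises of EFR3B and NEAT1 had close counterparts in the mean of the other lines, with log2 changes of 2.24 against 2.26 and 1.77 against 1.79. H3C4, another histone gene, and MIR548AR also belonged to the 20 largest rises, the latter on 21 reads over the JQ1 libraries.

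The largest falls included genes of secreted and membrane proteins. CXCL11, an interferon-induced chemokine, went from 8.97, 9.82 and 8.09 RPKM to 0.325, 0.237 and 0.134 RPKM (log2 −3.70, SE 0.109, adjusted p = 7.205e-08, limma). WIF1, a secreted Wnt inhibitor, fell from 5.14 to 0.156 RPKM. RGS4, a regulator of G protein signalling, fell from 17.9 to 1.63 RPKM and IL18R1, the interleukin 18 receptor, from 10.04 to 0.78 RPKM. The complement protease C1R fell from 7.56 to 0.527 RPKM. The DMSO and JQ1 libraries did not overlap for any of these 5 genes.

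SQOR, a mitochondrial enzyme that oxidises hydrogen sulfide, was at 52.9, 55.1 and 55.9 RPKM in DMSO and at 4.97, 4.96 and 4.34 RPKM with JQ1 (log2 −3.39, SE 0.050, adjusted p = 1.337e-08, limma). All other lines expressed it, between 6.15 and 96.3 RPKM in DMSO, and their log2 changes lay between −0.26 and 1.01. The difference from their mean was −3.77 (SE 0.058, adjusted p = 1.801e-28, limma). DUSP9, a phosphatase of MAP kinases, fell from 30.1 to 3.79 RPKM against a log2 change of −0.69 in the mean of the other lines. That mean includes HT-29, COLO 205 and HCT-15, which had at most 0.012 RPKM of DUSP9 in DMSO. In HCT 116 it fell from 7.749 to 1.405 RPKM and in SW 480 from 1.275 to 0.196 RPKM. DMTN, an actin-bundling protein, and the zinc finger gene ZNF532 fell by 2.84 and 2.83 on the log2 scale against −1.32 and −1.60 in the others. MPP4, CYP27C1, ATP6V0D2, KCNH7, LINC02389, NRK, ACTL8, GC, ADGRL3, COL13A1 and NXPH1 completed the 20 largest falls, with log2 changes between −3.25 and −2.70. GC encodes the vitamin D-binding protein, KCNH7 a potassium channel and ADGRL3 an adhesion receptor.

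Many of these genes were expressed in COLO 320 alone. By a rule chosen after the values were seen, 198 genes had a DMSO mean of at least 2 RPKM in COLO 320 and under 0.5 RPKM in each other line. Of these 142 fell, 33 rose and 77 (38.9%) fell at least 2-fold, with a median log2 change of −0.69. Of the 8710 genes at 2 RPKM or more in DMSO of all 6 lines, 2.5% fell at least 2-fold in COLO 320 and the median was −0.01. The restricted genes that fell included GJA1 (connexin 43), from 31.6 to 11 RPKM, PRRX1, a mesenchymal homeobox factor, from 31.4 to 11.5 RPKM, HDC, the histamine-forming enzyme, from 103 to 38.9 RPKM, and HHIP, a Hedgehog inhibitor, from 25.4 to 6.92 RPKM. The 3 that rose at least 2-fold were RARB, the axon guidance receptor ROBO1 (15.6 to 32.5 RPKM) and the secreted factor NDNF (9.84 to 20.4 RPKM). DMSO values entered both the choice of these genes and their change.

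The same rule was applied to each of the other lines in its own 6 libraries. The share of restricted genes that fell at least 2-fold was 35.3% of 68 in HCT 116, 48.3% of 118 in SW 480, 62.7% of 51 in HT-29, 57.8% of 102 in COLO 205 and 25% of 12 in HCT-15. Genes expressed in every line fell that much in 1.3% to 5.0% of cases. COLO 320 had the most restricted genes, and its share that fell lay within the range of the other lines. Of its 689 genes that fell at least 2-fold, 100 (14.5%) were under 0.5 RPKM in DMSO of all other lines, against 4.5% of those that rose as much and 2.5% of all tested genes.

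**Figure D3:**
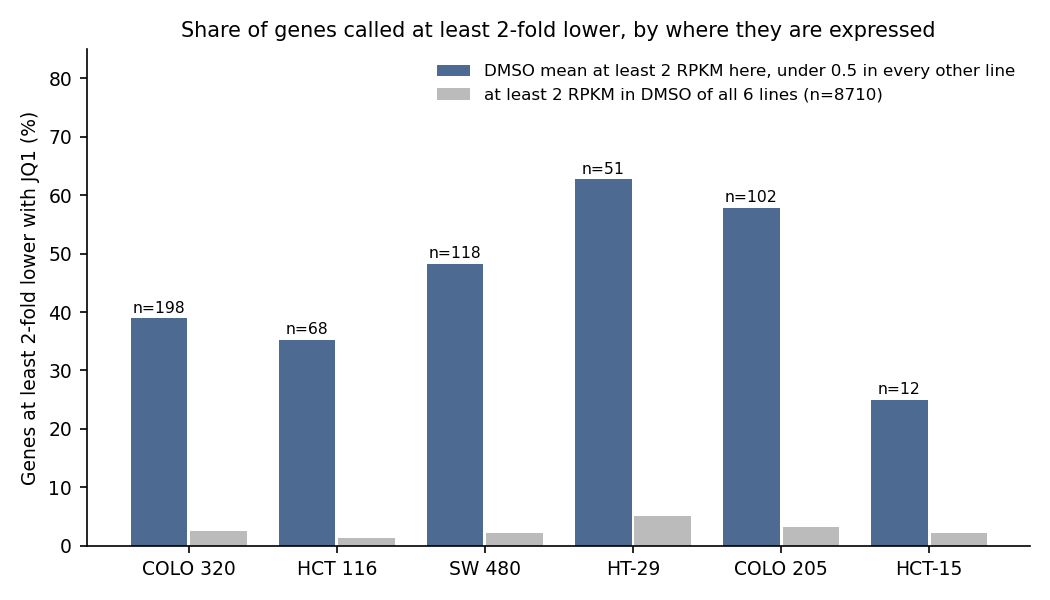
Share of genes called at least 2-fold lower with JQ1 in each line (%, from 0), for genes restricted to that line in DMSO (blue, with their number) and for the 8710 genes expressed in all 6 lines (grey). In COLO 320 the shares are 38.9% and 2.5%, and in each line the blue bar is the taller.

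Partners and rivals of MYC moved in both directions, and a share of them below that of all genes was called. MYCN, the neural paralog of MYC, was at 5.4, 5.75 and 5.84 RPKM in DMSO and at 1.91, 1.72 and 2.0 RPKM with JQ1 (log2 −1.38, SE 0.060, adjusted p = 3.783e-07, limma). MXD1 and MXD4, which compete with MYC for MAX and repress its targets, rose from 2.07 to 5.22 RPKM and from 18 to 43.1 RPKM. MAX fell by 0.23 on the log2 scale and AURKA, a mitotic kinase, by 0.39, and PIM1, a kinase, rose by 0.65. Of 15 tested network genes, MYC included, 4 rose, 6 fell and 5 were not called, with a median of −0.06, where 78.7% of all tested genes were called. The rise of MXD1 was 0.95 above the mean of the other lines, whereas that of MXD4 was 0.27 below it.

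MYC target genes fell by modest amounts. Of 32 tested targets 26 fell, 1 rose and 5 were not called, none changed 2-fold, and the median log2 change was −0.29 against −0.02 for all genes. SLC19A1, the folate carrier, fell from 22.9 to 11.6 RPKM and NME1, a nucleoside diphosphate kinase, from 284 to 169 RPKM. CAD, which starts pyrimidine synthesis, fell from 40.5 to 25.9 RPKM, and LYAR, a nucleolar regulator, from 82.2 to 52.0 RPKM. The median of the same genes in the mean of the other lines was −0.52. The effect in COLO 320 was called less negative for 23 of the 32 and more negative for 3, where 31.2% and 33.8% of all genes were called higher and lower. Those counts were 24 and 4 after quantile scaling, and 27 and 3 with total reads as the divisor.

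PPAT, the first enzyme of purine synthesis, was the target that rose, from 47.4, 46.6 and 47.9 RPKM to 59.4, 58.8 and 58.1 RPKM (log2 0.31, adjusted p = 2.029e-06, limma). PAICS, a later enzyme of the same pathway that is transcribed from the other side of the same promoter region, fell from 313, 317 and 319 RPKM to 218, 219 and 213 RPKM (log2 −0.55, adjusted p = 8.804e-08, limma). Neither gene's groups overlapped, so this neighbouring pair moved apart.

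The E-box CACGTG, the preferred site of MYC and MAX, was searched on both strands of the same promoter windows because it marks the class to which the targets belong. It was present in 11 of 29 targets with a promoter sequence (37.9%), in 13 of 36 ribosome biogenesis genes (36.1%), in 10.7% of all tested genes and in 7.4% of all 27305 promoters. Among genes called lower the share was 11.9% and among genes called higher 9.7%. For 5 targets, 100 bases around the E-box, lying upstream of the RefSeq start (GRCh38.p14), follow 5′ to 3′ on the gene's strand, with the E-box in capitals.
SRM (chr1:11060165-11060264, minus strand): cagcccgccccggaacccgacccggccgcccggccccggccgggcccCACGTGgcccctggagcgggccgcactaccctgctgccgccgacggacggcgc
CDK4 (chr12:57752461-57752560, minus strand): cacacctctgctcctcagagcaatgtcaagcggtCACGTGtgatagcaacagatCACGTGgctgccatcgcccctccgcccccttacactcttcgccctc
HSPE1 (chr2:197500279-197500378, plus strand): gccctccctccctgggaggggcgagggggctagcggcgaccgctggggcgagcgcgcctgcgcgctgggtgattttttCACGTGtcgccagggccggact
APEX1 (chr14:20455074-20455173, plus strand): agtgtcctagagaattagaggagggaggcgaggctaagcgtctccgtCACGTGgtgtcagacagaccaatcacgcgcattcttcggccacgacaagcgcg
PPAT (chr4:56435745-56435844, minus strand): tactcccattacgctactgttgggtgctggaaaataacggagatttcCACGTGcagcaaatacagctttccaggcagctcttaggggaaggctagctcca
SRM, spermidine synthase, fell from 134 to 99.1 RPKM, the kinase CDK4 from 225 to 183 RPKM, the mitochondrial chaperonin HSPE1 from 81.6 to 56.3 RPKM and the DNA repair enzyme APEX1 from 274 to 227 RPKM. PPAT, which rose, has the same E-box as the 4 that fell.

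Genes that build ribosomes fell along with the targets. Of 44 ribosome biogenesis genes 39 fell, 3 rose and 2 were not called, with a median of −0.30 (−0.44 in the mean of the other lines). MRTO4 and GAR1, factors of large subunit and small nucleolar RNA assembly, fell from 42.8 to 25.5 RPKM and from 32.3 to 19.5 RPKM. UBTF, the RNA polymerase I factor UBF, fell by 0.66 on the log2 scale and POLR1G, a polymerase I subunit, by 0.68. TAF1D, POLR1A and RRP12 rose, TAF1D the most, from 30.1 to 42.2 RPKM. The effect was called less negative in COLO 320 for 32 of the 44 and more negative for 5. In that comparison 31.2% of all tested genes were called higher and 33.8% lower.

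Ribosomal proteins themselves went the other way, but by little. Of 19 tested, 16 rose and 3 were not called, with a median of 0.17, and RPL23 rose from 731 to 897 RPKM. After quantile scaling 10 rose and 3 fell, so their direction held for a part of them only. All 18 mitochondrial ribosomal proteins fell, with a median of −0.42, and this count was 18 after quantile scaling and with total reads as the divisor too. MRPL3 fell from 149 to 71.1 RPKM and MRPL15 from 51.2 to 22.0 RPKM, with log2 changes of −1.06 and −1.20.

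RNA polymerase III genes moved in both directions, and tRNA charging genes mostly fell. GTF3C6, a subunit of the factor TFIIIC, was at 24.5, 27.4 and 25.5 RPKM in DMSO and at 5.16, 4.63 and 5.46 RPKM with JQ1 (log2 −2.24, SE 0.062, adjusted p = 5.474e-08, limma), near the mean of −2.20 in the other lines. POLR3G, a subunit of pluripotent and tumour cells, fell from 6.88 to 3.38 RPKM, while its paralog POLR3GL rose from 23.3 to 31.8 RPKM. Of 22 polymerase III genes 11 fell, 8 rose and 3 were not called, where 41.7% of all tested genes fell and 37.0% rose. Of 20 aminoacyl-tRNA synthetases 19 fell and QARS1 rose, and MARS1, which fell most, went from 93.2 to 62.1 RPKM. Among 21 nucleotide synthesis genes 17 fell and 3 rose, with a median of −0.39, and PFAS, IMPDH1 and DHODH fell by 0.83, 0.81 and 0.79 on the log2 scale. IMPDH2, the main isoform of the guanine pathway enzyme, rose from 198 to 251 RPKM.

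Translation factors were divided as well, with 10 of 19 lower, 4 higher and 5 not called. EIF4EBP1, which restrains the cap-binding protein eIF4E, fell from 135 to 87.1 RPKM, and the elongation factor EEF2 rose from 1128 to 1509 RPKM. Of 19 nuclear respiratory chain subunits 9 fell and 7 rose, near the 41.7% and 37.0% of all tested genes. Their median was −0.03, and ATP5MC1 fell most, from 158 to 98.0 RPKM. Of 9 polyamine genes 7 fell and 2 rose. SAT1, which breaks polyamines down, fell from 27.6, 29.2 and 27.0 RPKM to 19.3, 19.6 and 17.8 RPKM (log2 −0.55), while its log2 change was 0.94 to 2.29 in the other lines. The difference was −1.84 (adjusted p = 1.538e-26, limma).

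**Figure D4:**
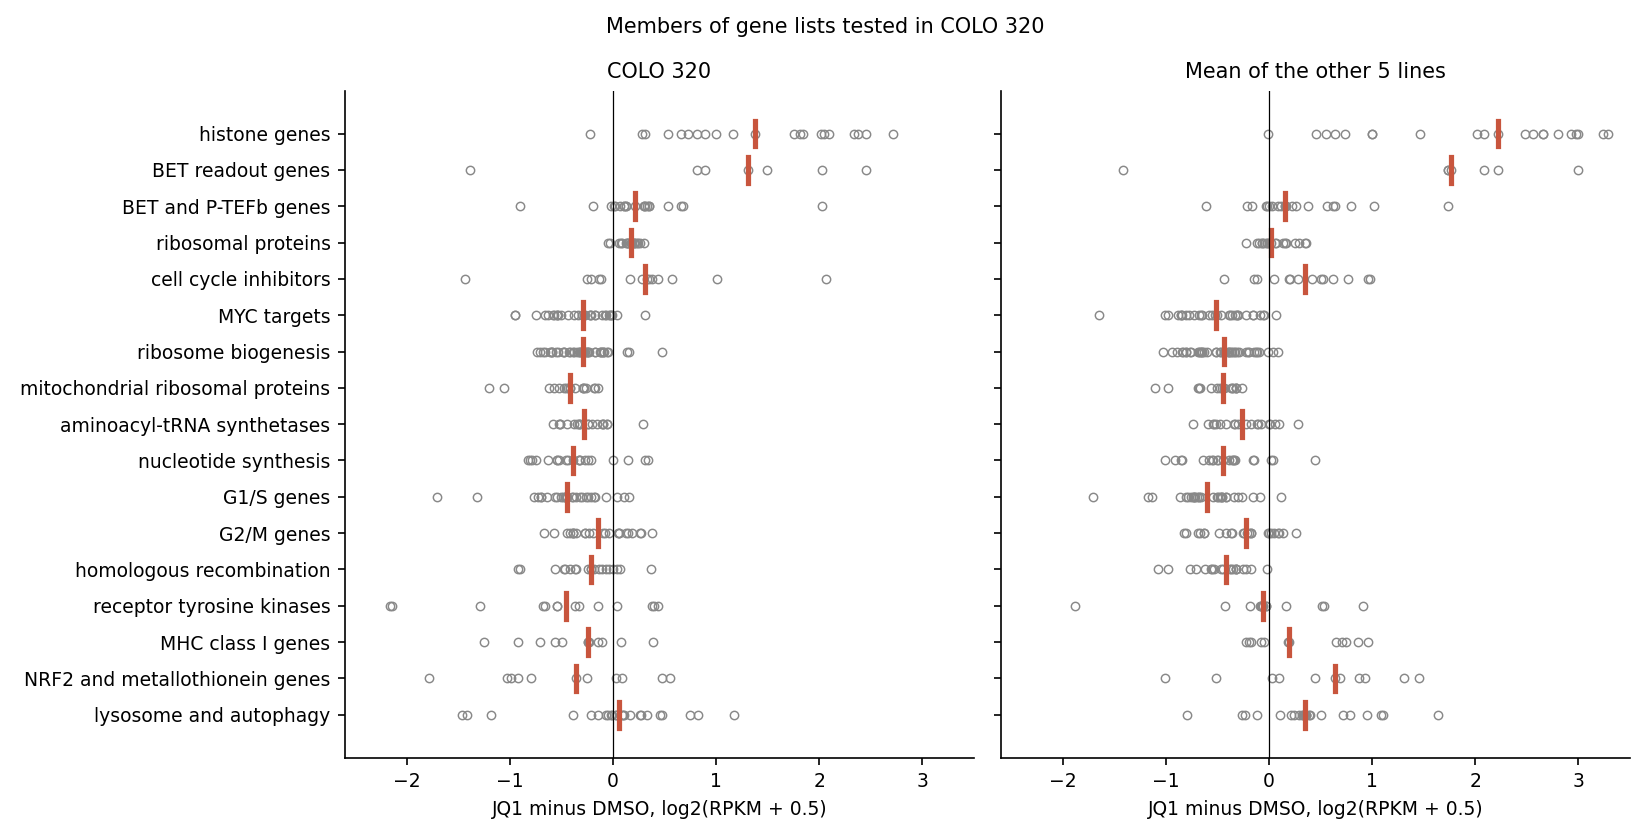
Log2 change with JQ1 (log2(RPKM + 0.5) scale) of each tested member of 17 gene lists in COLO 320 (left) and in the mean of the other 5 lines (right), with circles for genes and a red bar at the list's median. Histone genes lie to the right in both panels with medians of 1.38 and 2.23, MYC targets to the left at −0.29 and −0.52, and the NRF2 list moves from −0.36 on the left panel to 0.64 on the right.

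Genes of the G1 to S transition fell. Of 30 tested, 26 fell, 1 rose and 3 were not called. Their median was −0.45 against −0.61 in the mean of the other lines. The effect was called less negative in COLO 320 for 20 and more negative for 2. In that comparison 31.2% of all tested genes were called higher and 33.8% lower. E2F2, a transcription factor of S phase entry, was at 6.01, 5.85 and 5.78 RPKM in DMSO and at 1.35, 1.56 and 1.45 RPKM with JQ1 (log2 −1.71), the same as the mean of the other lines. CCND1 (cyclin D1) fell from 6.87 to 2.45 RPKM, 1.16 below the mean of the others on the log2 scale. The replication helicase subunits MCM5 and MCM2 fell from 58.6 to 34.3 RPKM and from 151 to 92.9 RPKM. CCND3 rose by 0.15 on the log2 scale.

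Mitotic genes were less uniform. Of 24 G2/M genes 14 fell, 6 rose and 4 were not called, with a median of −0.15. The shares over all tested genes were 41.7% lower and 37.0% higher. FOXM1, the main transcription factor of this phase, fell from 76 to 47.7 RPKM and the kinase PLK1 from 102 to 76 RPKM. TOP2A, BUB1, CENPE, CENPF, KIF11 and KIF23 rose by 0.13 to 0.38 on the log2 scale. Of 20 homologous recombination genes 15 fell and BRCA2 rose, from 7.05 to 9.22 RPKM. FANCD2 and RAD51D fell from 9.45 to 4.75 RPKM and from 7.88 to 3.99 RPKM.

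Inhibitors of the cell cycle changed one by one. Of 14 tested 8 rose, 4 fell and 2 were not called, where 37.0% of all tested genes rose and 41.7% fell. CDKN1A and CDKN2B were under the filter, at 0.113 and 0.0738 RPKM in DMSO. Beside CDKN2D, CCNG2 (cyclin G2) rose from 6.26 to 13.1 RPKM and RB1 from 55.4 to 72.4 RPKM. CDKN1C, the imprinted inhibitor p57, fell from 5.02, 5.08 and 5.06 RPKM to 1.37, 1.49 and 1.83 RPKM (log2 −1.43). In the other lines its log2 change ran from −0.16 to 3.59, the highest in COLO 205.

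Apoptosis and p53 lists showed no common direction, where 41.7% of all tested genes fell and 37.0% rose. Of 9 anti-apoptotic genes 6 fell and 2 rose, with CFLAR, an inhibitor of caspase 8, down from 2.35 to 0.835 RPKM, BCL2L1 (BCL-xL) down from 14.4 to 9.53 RPKM and MCL1 up from 392 to 525 RPKM. Of 16 pro-apoptotic genes 9 fell and 7 rose. The death receptor TNFRSF10A fell from 9.31 to 5.25 RPKM, and BCL2L11 (BIM), APAF1 and CASP9 rose by 0.46, 0.62 and 0.63 on the log2 scale. Of 14 p53 targets 8 rose, 4 fell and 2 were not called. RRM2B, a ribonucleotide reductase subunit, rose from 5.71 to 10.5 RPKM and AEN, a nuclease, fell from 16.5 to 8.91 RPKM.

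Wnt targets and stem genes divided into equal numbers, 8 higher and 8 lower of 16 tested. The shares over all tested genes were 37.0% higher and 41.7% lower. ASCL2, the crypt stem cell factor, fell from 12.3 to 2.95 RPKM (log2 −1.90), TNFRSF19 from 13.7 to 5.65 RPKM and LGR5, the stem cell receptor, from 2.13 to 1.21 RPKM. The feedback inhibitors AXIN2, ZNRF3, RNF43, NKD1 and NOTUM rose by 0.32 to 0.52 on the log2 scale, NOTUM from 90.2 to 126 RPKM. Among 13 Notch and ID genes 7 rose and 5 fell, with NOTCH3 down from 1.96 to 0.285 RPKM and ID2 up from 7.0 to 10.6 RPKM.

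Of the 7 intestinal genes above the filter 4 fell, 2 rose and 1 was not called. Across all tested genes 41.7% fell and 37.0% rose. CDH17, the intestinal cadherin, fell from 2.81, 2.58 and 2.67 RPKM to 0.329, 0.311 and 0.329 RPKM (log2 −1.95), while KLF5 and KRT20 rose. EPCAM, at 1.21, 1.46 and 1.45 RPKM in DMSO, fell to 0.0608, 0.0493 and 0.104 RPKM, and every other line had at least 185.8 RPKM in DMSO. The keratin KRT18 fell by 0.29 on the log2 scale. KRT8, with a log2 change of −0.08, lost its call after quantile scaling, with voom and with any of 5 single libraries left out. The junction genes JUP, TJP1 and DSP rose by 0.39 to 0.45. Of 9 mesenchymal genes 6 fell and 3 rose. ITGA5, the fibronectin receptor subunit, fell from 14.9 to 5.92 RPKM, SNAI1 from 7.7 to 3.17 RPKM and ZEB2 from 6.59 to 3.69 RPKM, while VIM rose from 520 to 646 RPKM and ZEB1 from 4.68 to 6.6 RPKM. Of 6 tested neuroendocrine genes SNAP25 and UCHL1 fell and 4 were not called. The fall of UCHL1 was small (log2 −0.08) and was not called with voom, at −0.03.

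Markers of other cells were checked because they could move with these genes. The summed level of 11 fibroblast markers was 17.1 to 17.4 RPKM in DMSO and 3.8 to 4.0 RPKM with JQ1. The part of these markers in the falls of mesenchymal and receptor genes was not tested. Most of the sum was COL3A1, a fibrillar collagen, which fell from 13.1, 13.3 and 13.2 RPKM to 2.84, 2.63 and 2.47 RPKM. COL1A2 and POSTN were at 0 in all 6 COLO 320 libraries, and DCN and LUM were at 0 and 0.0278 RPKM in DMSO. The 12 leukocyte markers summed to 8.4 to 9.1 RPKM in DMSO and 7.4 to 8.9 RPKM with JQ1, and the 7 endothelial markers to 0.7 RPKM at most.

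Growth factor receptor genes were mostly lower. Of 14 receptor tyrosine kinases 10 fell, 3 rose and 1 was not called, with a median of −0.45 against −0.06 in the mean of the other lines. The effect was called lower for 11 and higher for 2 (9 and 2 after quantile scaling). In that comparison 33.8% of all tested genes were called lower and 31.2% higher. DDR1, a collagen receptor, fell from 5.74, 5.46 and 5.47 RPKM to 0.91, 0.815 and 0.833 RPKM (log2 −2.16), where the log2 change in other lines was −0.89 to 0.43. TYRO3, a receptor of the TAM family, fell from 12.1 to 2.35 RPKM, close to the mean of −1.88 elsewhere. FGFR1, IGF1R and FGFR3 rose by 0.43, 0.38 and 0.40 on the log2 scale. EPHA2, an ephrin receptor and ERK target, fell from 8.95, 8.4 and 8.64 RPKM to 2.18, 2.0 and 1.9 RPKM, while in the other lines its log2 change was −0.03 to 1.43. Of 14 genes of AP-1 and ERK output 6 fell, 3 rose and 5 were not called. Across all tested genes 41.7% fell and 37.0% rose. ETV5 fell from 12.7 to 6.77 RPKM, and JUN, JUND and FOSL2 rose by 0.65 to 0.92 on the log2 scale. Of 12 actin and YAP target genes 7 rose and 5 fell, with CCN2 and CCN1 up by 0.73 and 0.59 and AJUBA down by 0.96.

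MHC class I genes differed from those of the other lines, while several NF-kB and interferon genes moved the same way there. Of 12 MHC class I genes 9 fell, 2 rose and 1 was not called, with a median of −0.24 against 0.19 elsewhere. Of the 12, 11 were called lower in effect and 0 higher (10 and 1 after quantile scaling). In that comparison 33.8% of all tested genes were called lower and 31.2% higher. The peptide transporters TAP2 and TAP1 fell from 6.02 to 2.24 RPKM and from 4.06 to 1.9 RPKM, and HLA-E rose from 7.41 to 9.86 RPKM. B2M rose by 0.08 on the log2 scale, against 0.87 in the others. HLA genes resemble one another, and reads may be shared. Of 17 listed NF-kB targets 12 were under the filter and the other 5 fell (4 after quantile scaling), with NFKB1 down from 21.9 to 12.9 RPKM. Of 9 interferon-stimulated genes 4 rose and 4 fell, where 37.0% of all tested genes rose and 41.7% fell. Of the 9, 7 were called lower in effect and 0 higher (6 and 1 after quantile scaling). The RNA sensor IFIH1 fell from 15.9 to 3.93 RPKM and IFIT1 from 4.71 to 1.33 RPKM, while STAT2 rose by 0.53 on the log2 scale. IFIH1 also fell and STAT2 also rose in every other line. NFKB1 fell in all of them but COLO 205, and IFIT1 in all but SW 480.

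Stress and metabolic lists followed. Of 11 NRF2 and metallothionein genes 7 fell, 2 rose and 2 were not called. Their median was −0.36 against 0.64 in the mean of the other lines. The effect was called lower for 10 of 11, where it was called lower for 33.8% of all tested genes. NQO1, a quinone reductase and NRF2 target, was at 10.9, 10.5 and 11.1 RPKM in DMSO and at 8.45, 8.31 and 8.29 RPKM with JQ1 (log2 −0.36), whereas its log2 change was 0.88 to 2.03 in the other lines. OSGIN1 and SRXN1, of the oxidative stress response, fell by 1.03 and 0.79 on the log2 scale against mean changes of 1.31 and 0.45 elsewhere. Among 16 ATF4 and ER stress genes 10 fell and 4 rose, with SLC7A11, the cystine transporter, down from 8.0 to 1.97 RPKM and TRIB3 from 12.4 to 3.46 RPKM. ASNS, asparagine synthetase, fell from 33.0, 33.2 and 33.3 RPKM to 24.0, 23.9 and 23.0 RPKM. In the other lines its log2 change ran from −0.57 in COLO 205 to 2.97 in SW 480.

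Of 14 amino acid transporters 11 fell and 2 rose, with SLC7A5 and its partner SLC3A2 down from 179 to 108 RPKM and from 115 to 73.1 RPKM. Of 24 lysosome and autophagy genes 10 rose, 7 fell and 7 were not called, where 37.0% of all tested genes rose and 41.7% fell. The effect in COLO 320 was called lower than the mean of the others for 20 and higher for 3. Of all tested genes, 33.8% were called lower and 31.2% higher in that comparison. NEU1, a sialidase, rose from 15.1 to 34.7 RPKM and MAP1LC3B, the autophagosome protein LC3, from 32.3 to 57.4 RPKM, while the cathepsins CTSZ and CTSL fell from 54.5 to 20.1 RPKM and from 2.71 to 0.662 RPKM. Of 16 chaperones 12 fell and 4 were not called, with HSPB1 down from 88.9 to 48.3 RPKM. Of 20 cholesterol synthesis genes 10 fell, 3 rose and 7 were not called, with HMGCS1 down from 66.2 to 42.7 RPKM. Of 20 glycolysis and hypoxia genes 9 fell and 7 rose, near the 41.7% and 37.0% of all tested genes. EGLN3, an oxygen sensor, was the one that fell at least 2-fold, from 4.62 to 1.82 RPKM.

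Chromatin and transcription machinery genes moved in both directions, where 37.0% of all tested genes rose and 41.7% fell. Of 24 chromatin regulators 11 rose, 10 fell and 3 were not called. The deacetylase HDAC7 fell from 8.84 to 2.16 RPKM (log2 −1.81, against −0.44 elsewhere), the acetyltransferase KAT2A fell from 53 to 30.7 RPKM and SIRT1 rose from 12 to 21.3 RPKM. Of 27 Mediator and elongation genes 13 rose and 10 fell, with MED24 down from 37.1 to 20.01 RPKM and CDK19, a Mediator kinase, up from 3.93 to 8.16 RPKM. Of 18 noncoding RNAs 8 rose and 8 fell. MALAT1 rose from 6.57 to 16.6 RPKM, TUG1 from 34.6 to 56.7 RPKM and NORAD from 28.5 to 45.5 RPKM, and H19, the imprinted RNA, fell from 1.3 to 0.177 RPKM.

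ABCB1, the drug efflux pump P-glycoprotein, was at 68.1, 74.6 and 72.0 RPKM in DMSO and at 158, 162 and 162 RPKM with JQ1 (log2 1.16, SE 0.032, adjusted p = 5.378e-08, limma). It was the strongest of 3 rises among 8 ABC transporters, of which 4 fell, where 37.0% of all tested genes rose and 41.7% fell. The log2 change of ABCB1 was 1.07 and 1.03 in HCT 116 and SW 480, from DMSO means of 0.909 and 0.93 RPKM. HCT-15, the other line with a high level of ABCB1, went from 65.4 to 80.8 RPKM, a log2 change of 0.30. Of 14 housekeeping genes 9 rose and 2 fell, with log2 changes between −0.15 and 0.37, so changes of that size were also seen among genes used as references.

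A direct test of the difference was run for each gene, as the COLO 320 effect minus the mean effect of the other 5 lines. It called 3895 genes (31.2%) higher and 4219 (33.8%) lower in COLO 320, so 48.0% of these calls were higher. That share was 58.9% after quantile scaling and 55.9% with total reads as the divisor. Among the 8710 genes expressed in all 6 lines, 3147 (36.1%) were called higher and 2630 (30.2%) lower. The genes in the next sentences were picked after their values were seen, from among the most different of these 8710. CAPN2, a calpain protease, fell from 40.8 to 10.02 RPKM against −0.22 elsewhere, TIMP2, a metalloproteinase inhibitor, fell from 41.4 to 22.3 RPKM against 0.79, and ASS1, argininosuccinate synthase, fell from 10.3 to 2.61 RPKM against 0.02. HOXA9, a homeobox factor, fell from 3.07 to 0.686 RPKM against 0.27. Upward, ELF1, an ETS factor, rose from 17.0, 17.0 and 16.3 RPKM to 49.1, 48.3 and 48.1 RPKM, 1.03 above the mean of the others on the log2 scale. GPC4, a heparan sulfate proteoglycan, rose from 168 to 213 RPKM, whereas it changed by −0.65 elsewhere. SQOR and KLF5 were the extremes on either side.

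**Figure D5:**
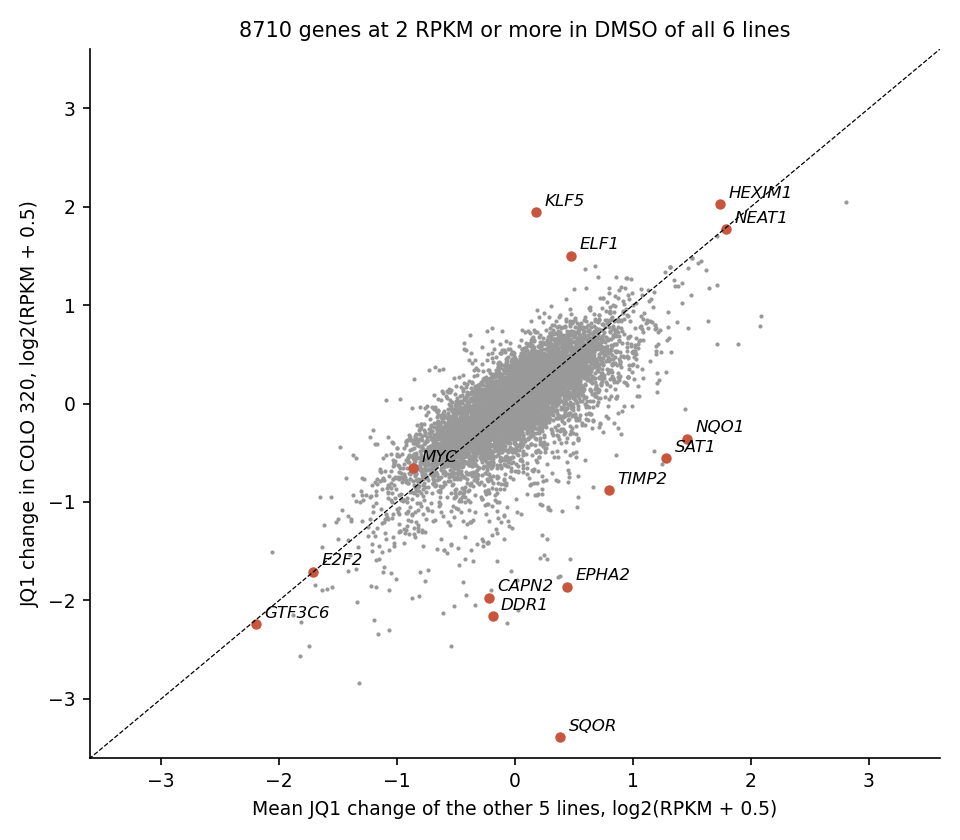
Log2 change with JQ1 in COLO 320 against the mean change of the other 5 lines for the 8710 genes at 2 RPKM or more in DMSO of all 6 lines, each point a gene and the dashed line marking equal change. HEXIM1, NEAT1, E2F2 and GTF3C6 lie near the line, KLF5 and ELF1 above it, and SQOR, EPHA2, DDR1, CAPN2, SAT1 and NQO1 below it.

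The 10 genes whose effect stood highest above the mean of the other lines also held TNFSF12-TNFSF13, a readthrough gene, and PRKACB, a catalytic subunit of protein kinase A, which rose from 3.02 to 5.11 RPKM. The log2 change of PRKACB was 0.67 in COLO 320 and 0.68 in HCT-15, and it was −2.39 in HT-29 and −1.27 in HCT 116, which set the mean of the other lines at −0.65. The small RNA genes SNORD6, RNU5E-1 and SNORD100, were also among them, on 16 to 17 reads over the 3 JQ1 libraries each. DHRS2, a mitochondrial reductase known to rise with histone deacetylase inhibitors, was among the 10 lowest. It fell from 6.95, 6.66 and 7.06 RPKM to 4.52, 4.29 and 4.15 RPKM in COLO 320 (log2 −0.62), while its log2 change was 0.91 to 3.90 in the other lines, with a mean of 2.52.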

How the data were processed

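Per the labels' protocols, column-purified, DNase-treated RNA went into TruSeq RNA libraries. Whether these kept strand is not stated, so overlapping antisense genes cannot be told apart. The deposited values are RPKM per gene computed by the authors. Each library's divisor followed the median ratio of its reads to the geometric mean of all 36 libraries, not its total reads. In COLO 320 the divisor was 1.1176 to 1.1242 times the reads in genes. The submitters' processing notes name GSNAP, DESeq and limma, without versions, and the build NCBIM37, a mouse assembly name, although the identifiers are human Entrez numbers; 24519 of 26468 genes were named through RefSeq.

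Here, whole reads recovered from the RPKM steps (100% of 23499 genes within 0.01 read) gave the depth and fed 1 alternative. Genes reaching 1 RPKM in 3 or more of the 6 COLO 320 libraries were fitted as log2(RPKM + 0.5) in limma 3.58.1 (R 4.3.3) with moderated variances and a trend, with 4 residual and 3.54 prior degrees of freedom. The difference from the other lines used all 36 libraries and 12 group means (24 residual degrees of freedom). All tests were two-sided, and p-values were adjusted by Benjamini-Hochberg over all genes tested. Of the tested genes 165 repeat another gene's values. Promoter sequences came from RefSeq (GRCh38.p14). Tables and figures used Python 3.11.15. The fit was tested on simulated data in which few genes changed and rises were as likely as falls. In the COLO 320 data 78.7% of genes were called, so that test cannot speak to the scaling or the call rate here.

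The members, gene lists and rules were chosen with earlier results of these data known. Named genes are 9 fixed ones, the 20 largest rises and falls with separated groups and at least 2 RPKM, the 10 largest differences from the other lines each way, the 10 highest levels in DMSO (of which MYC is described), and in each list up to 6 called members and those against its majority. Listed symbols CASC11, CASC19, CCAT2, OAZ1 and OAZ2 were not matched. Replicate numbers did not pair the libraries. Some genes that the rule names are not reported here.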

Additional observations from a re-analysis of the deposited data

Results flagged for a closer look

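For 27 named genes the JQ1 effect in COLO 320 differed from the mean effect of the other 5 lines by a direct test of that difference (limma, adjusted p under 0.05). Values are differences of log2 changes, COLO 320 minus the others. Below the other lines stood SQOR at −3.774, CXCL11 at −3.629, DHRS2 at −3.135, MPP4 at −3.117, WIF1 at −3.108, RGS4 at −3.107, CYP27C1 at −3.021, ATP6V0D2 at −3.013, KCNH7 at −2.994 and LINC02389 at −2.901. Of these 10, the genes other than SQOR and DHRS2 were at or under 0.385 RPKM in DMSO of every other line, so a lack of response there cannot be told from a lack of expression.

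Above the other lines stood TBX10 at 3.495, KLF2 at 1.839, KLF5 at 1.765, KRT20 at 1.751, TNFSF12-TNFSF13 at 1.512, RARB at 1.47 and PRKACB at 1.325. SNORD6 at 1.995, RNU5E-1 at 1.978 and SNORD100 at 1.548 rest on 16, 16 and 17 reads over the JQ1 libraries and 4, 0 and 8 over the DMSO libraries.

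Among the drug's targets, its readout genes and the amplified regions, CDX2 differed by −1.187, SERPINI1 by −0.237, BRD2 by −0.093, HEXIM1 by 0.293, BRD3 by 0.22, MYC by 0.212 and PVT1 by 0.19. With HT-29 left out of the mean, PVT1 differed by 0.096 (adjusted p = 0.091, limma), and with HCT-15 left out BRD2 differed by −0.018 (adjusted p = 0.316, limma). BRD2 differed by −0.036 after quantile scaling (adjusted p = 0.0766, limma) and by −0.048 with total reads as the divisor. HEXIM1 differed by 0.124 without HCT-15, 0.525 without COLO 205 and 0.492 after quantile scaling, and was called each time. SERPINI1 was close to the threshold (adjusted p = 0.04899, limma) and did not pass it without SW 480 or without HCT-15, after quantile scaling, with total reads as the divisor (adjusted p = 0.0848, limma), with the replicate number as a block (adjusted p = 0.0593, limma), or with any of 5 single COLO 320 libraries left out. SNORD100 (adjusted p = 0.04632, limma) also missed it with single libraries or lines left out. The rise of TNFSF12-TNFSF13 in COLO 320 itself lost its call with single libraries left out. The MYC difference missed the threshold after quantile scaling (0.026).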

How the results depend on the processing

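The direction of the MYC change in COLO 320 and its call were the same under every alternative, with log2 changes from −0.773 (quantile scaling) to −0.60 (voom). The counts of genes called higher and lower stayed within 1.5 times the reported values. The count at least 2-fold higher (179) was 115 at a pseudocount of 1, 112 with a minimum of 5 RPKM, 286 after quantile scaling and 347 with voom on recovered reads, and 144 to 191 with 1 library left out. The count at least 2-fold lower (689) was 362 with a minimum of 5 RPKM and 445 to 695 with 1 library left out. With 2-library groups the fit pools the spread. Holding the 12473 genes fixed while leaving out a library, and leaving single lines out of the comparison mean, were chosen after seeing the data. With the replicate number as a block, 181 genes rose and 689 fell at least 2-fold; same-numbered libraries correlated at −0.055, 0.005 and 0.001 in their deviations, so the numbers were not taken as pairs. The difference of SERPINI1 from the other lines was −0.97 at a pseudocount of 0.1 and reversed to 0.119 at a pseudocount of 1 (adjusted p = 0.19, limma). Its DMSO means were 0.077 to 1.99 RPKM in the other lines against 11.6 RPKM in COLO 320, and the cause was not tested. Using the cell line as the unit could give no test with 1 line. Depth limits genes near 1 RPKM, above all the short ones.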
